A study of Gallus gallus with 20 samples.

Results

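Cadherin and protocadherin genes were examined in chromatin of the embryonic chicken lens. The set held the protein-coding genes of the RefSeq table of build GRCg7b whose symbol is CDH followed by a number or begins with PCDH. It comprised 45 genes, 20 CDH and 25 PCDH, of 17839 protein-coding genes on the assembled chromosomes. The tissue was the lens of Gallus gallus at embryonic day 4.5, taken in 3 pools of about 44 lenses each. Chromatin was profiled by CUT&RUN, in which an antibody tethers a nuclease that cuts out the DNA next to its target in isolated nuclei. Each of the 20 libraries used 100000 nuclei. There were 3 libraries per antibody for 2 histone marks, H3K27me3 and H3K4me3 (trimethylation of lysines in the tail of histone H3), and for the proteins AEBP2, JARID2, SUZ12 and EZH2. The other 2 libraries used IgG, which recognises no chromatin protein. No treatment, genotype or second stage was compared, and each pool mixed all cells of the dissected lenses.

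Cadherins are calcium-dependent adhesion proteins that bind the same or a similar cadherin on the neighbouring cell and link to the actin cytoskeleton through catenins. Type I and type II classical cadherins differ in the tryptophan residues that swap between partners. Protocadherins are a related family, best known from neurons. The clustered alpha and gamma ones are made from variable first exons, each with a promoter of its own, spliced to exons that the cluster shares. CDH2 encodes N-cadherin and CDH1 encodes E-cadherin. In the mouse lens N-cadherin is found in epithelium and fiber cells and E-cadherin in the epithelium. H3K4me3 marks active and poised promoters. H3K27me3 is deposited by Polycomb repressive complex 2 (PRC2), of which EZH2 is the enzyme, SUZ12 a core subunit, and JARID2 and AEBP2 are accessory subunits, and it is associated with silenced genes.

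The data were 6 peak lists, 1 per antibody, so the 3 libraries of an antibody had no separate values and no spread between libraries could be given. The lists held 11079 (H3K4me3), 22875 (H3K27me3), 25935 (EZH2), 54487 (SUZ12), 48093 (JARID2) and 168110 (AEBP2) peaks on assembled chromosomes. Read depth was unknown and antibodies were diluted 1 in 100 for EZH2 and SUZ12, 1 in 25 for AEBP2 and 1 in 50 for the others, so list lengths and folds were not compared between antibodies. The fold of a peak is its enrichment over background as the authors' peak caller gave it, and the −log10 q-value is the caller's adjusted significance. Marker genes of the labelled tissue are given as a description. They were chosen with earlier results of these data known, so they are no independent check. All 16 lens markers had H3K4me3 alone at a gene end, against 45.3% of all genes, among them PAX6, PROX1 and BFSP2. H3K4me3, with or without H3K27me3, lay at 1 of 8 endothelial, 1 of 6 blood, 1 of 5 neural, 1 of 5 muscle and 4 of 6 mesenchyme markers, against 57.2% of all genes. None of the markers in these other lists had H3K4me3 alone, as each one with H3K4me3 had H3K27me3 as well.

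A gene was counted as marked at its ends when a peak overlapped, by at least 1 bp, a window of 1 kb on both sides of either end. The gene table gives no strand, so the ends are named by coordinate, as the low and the high end, and the start of transcription was not told from the 3′ end. The body was the gene without these windows. Counts over the 45 genes are set beside the share of all 17839 protein-coding genes, as a description with no test. Because the lenses were pooled, both marks on the same chromatin and each mark in different cells cannot be told apart.

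H3K4me3 was found at the ends of 10 of the 45 genes (22.2%), against 57.2% of all genes. H3K27me3 was found at 31 (68.9%), against 26.0% of all genes. The cadherin and protocadherin genes thus had fewer H3K4me3 and more H3K27me3 ends than the gene set as a whole. Of the PRC2 subunits, EZH2 lay at 34 genes (75.6%, against 59.3% of all genes), JARID2 at 26 (57.8%, against 43.2%) and AEBP2 at 27 (60.0%, against 37.1%). SUZ12 was rarer at these genes, as H3K4me3 was, at 21 (46.7%, against 64.5% of all genes). For AEBP2 the excess was lost when each list was cut to its 11079 strongest peaks, with 4 genes (8.89%) against 9.24% of all genes. The EZH2 excess depended on the background and on the clustered protocadherins. All 45 genes have a symbol, and EZH2 lay at 68.2% of all genes with one. Without the clustered protocadherins EZH2 lay at 22 of 32 genes (68.8%), near that share though above the 59.3% of all genes.

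**Figure D1:**
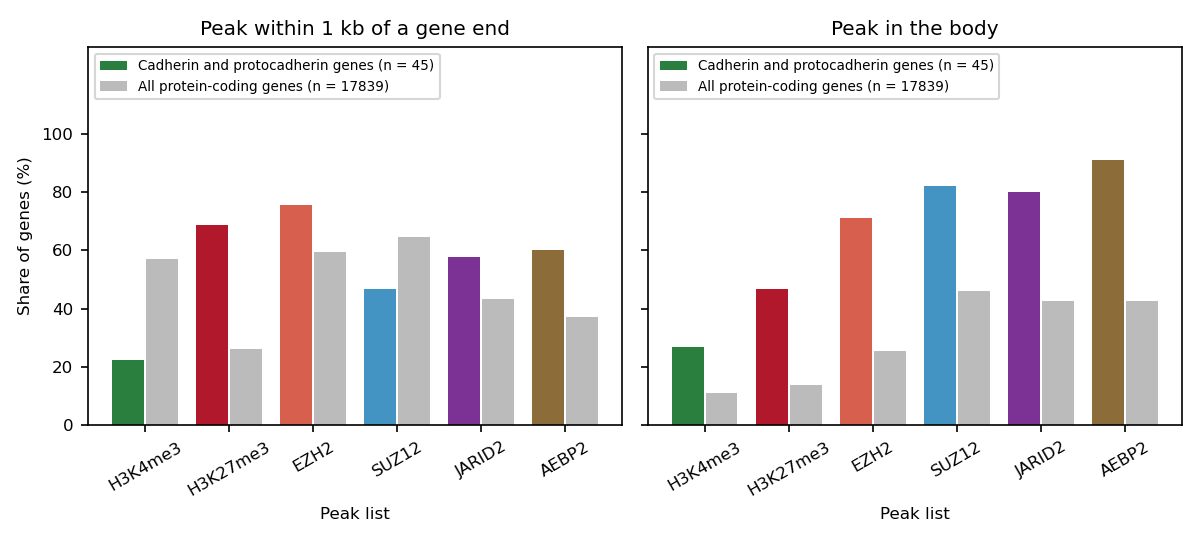
Share of genes, in percent, with a peak within 1 kb of a gene end (left) or in the body (right) for each of the 6 peak lists. Coloured bars are the 45 cadherin and protocadherin genes and grey bars all 17839 protein-coding genes; at the ends the coloured bar is the lower one for H3K4me3 (22.2% against 57.2%) and SUZ12 (46.7% against 64.5%).

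The 2 histone marks divided the genes into 4 states. H3K27me3 without H3K4me3 was the commonest, at 25 genes (55.6%), against 14.0% of all genes. Only 4 genes had H3K4me3 alone (8.89%, against 45.3% of all genes): CDH2, PCDH7, PCDHGC5 and PCDH11X. Both marks were found at 6 genes (13.3%, near the 12.0% of all genes): CDH4, PCDH20, PCDHAC1, PCDH1, PCDHGC3 and CDH3. The remaining 10 genes (22.2%, against 28.7% of all genes) had neither mark. The 13 clustered protocadherins share gene ends and peaks. Without them, 3, 16, 4 and 9 of the other 32 genes had H3K4me3 alone, H3K27me3 alone, both marks and neither.

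The states followed the gene classes unevenly. Of 5 type I cadherins 1 had H3K4me3 alone, 2 had H3K27me3 alone and 2 had both. Of 12 type II cadherins none had H3K4me3 at an end, 6 had H3K27me3 alone and 6 had neither. All 5 delta-2 protocadherins had H3K27me3 alone, whereas of 4 delta-1 protocadherins 2 had H3K4me3 alone, 1 both and 1 neither. Each class is small, and the difference between classes was not tested.

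**Figure D2:**
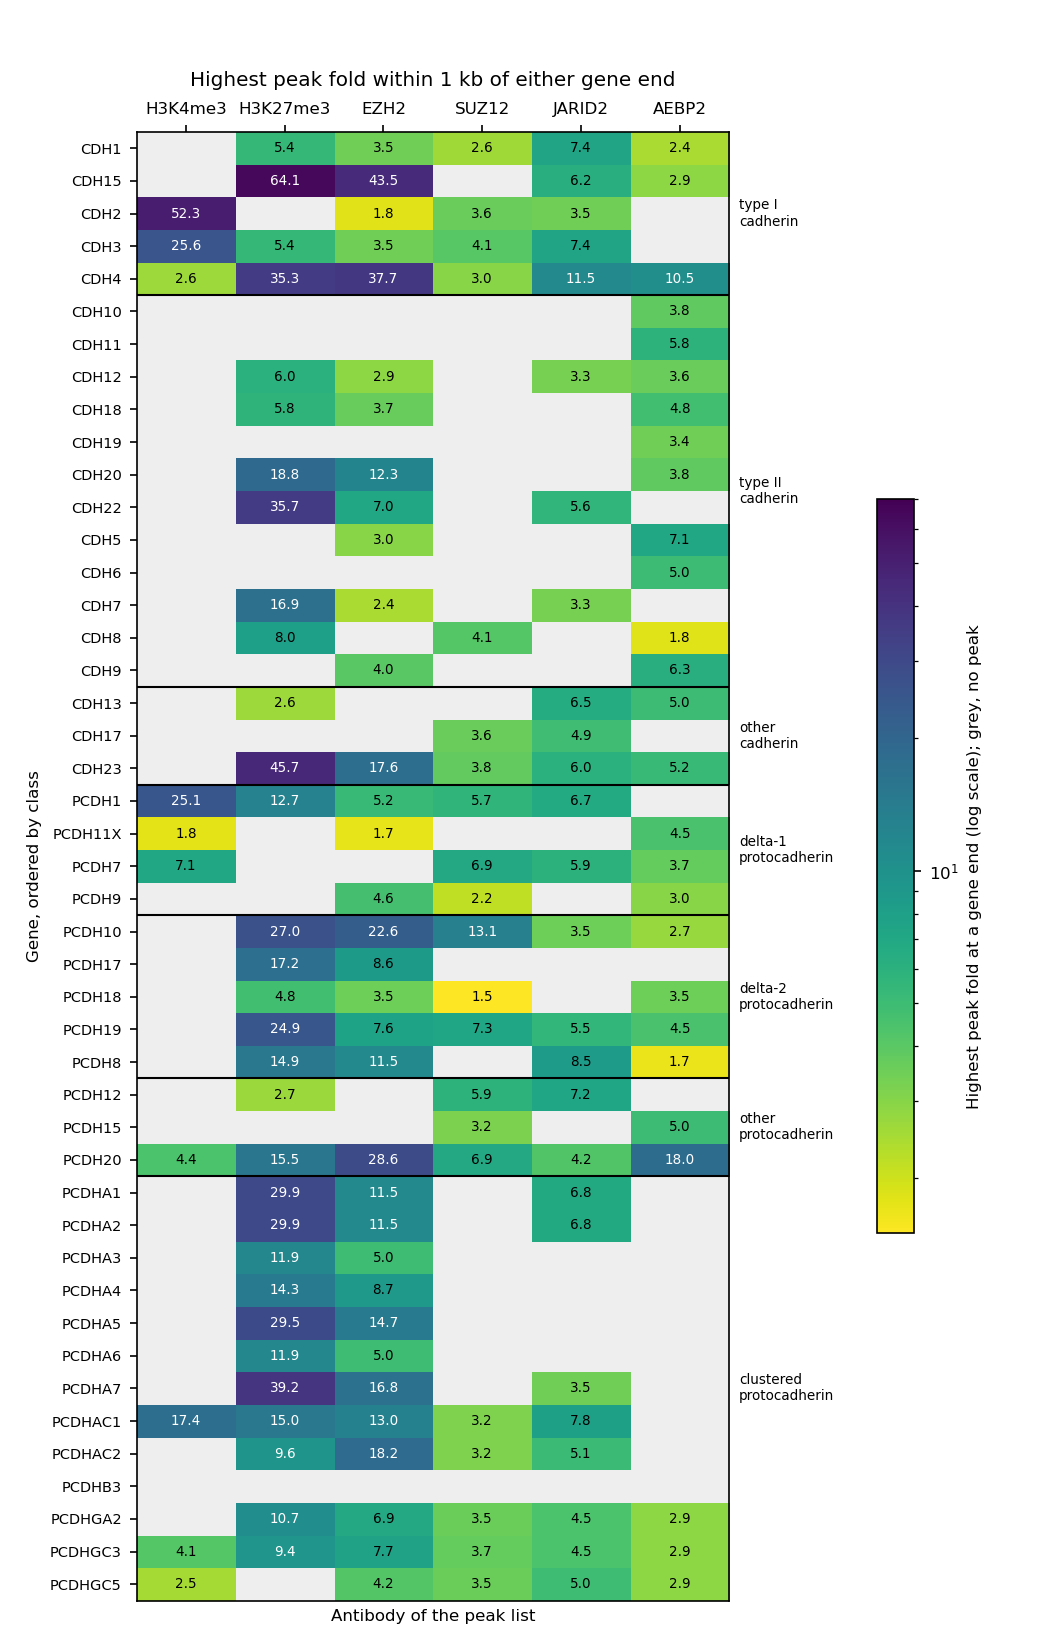
Highest peak fold within 1 kb of either gene end for each gene (rows, ordered by class) and peak list (columns), as number and colour on a log scale, with grey where no peak was found. H3K4me3 is grey in 35 of 45 rows, and its strongest value, 52.3, is that of CDH2; folds compare within a column only.

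CDH2 (chromosome 2, positions 104411911 to 104526394, 114.484 kb) carried the strongest H3K4me3 peak of the set. The peak lay over the high end, had a fold of 52.3 and a −log10 q of 3531, and was 3465 bp wide. Of the 11079 H3K4me3 peaks, 447 had a higher fold and 228 were wider. No H3K27me3 peak was found at the ends or in the body of CDH2, and the nearest was 240 kb away from its low end. By the windows of 1 kb, CDH2 was thus the one type I cadherin with the active mark and without the Polycomb mark.

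EZH2, SUZ12 and JARID2 were found at the ends of CDH2 with low folds, each below the median fold of all genes with such a peak. Of all genes with H3K4me3 alone, 75.7% had EZH2 and 89.7% had SUZ12 at an end. An EZH2 peak of fold 1.77 and a SUZ12 peak of fold 3.61 lay at the high end within the H3K4me3 peak. The SUZ12 peak was low in fold but had a −log10 q of 45.3 and was 2306 bp wide, against a median of 277 bp in its list. A JARID2 peak of fold 3.46 lay at the low end, and no AEBP2 peak was found at either end. The body held 8 SUZ12 peaks (fold 2.43 to 5.07), 3 JARID2 peaks (2.94 to 3.56) and 5 AEBP2 peaks (2.94 to 3.90), and no EZH2 peak. For SUZ12 this was 7.11 peaks per 100 kb of body, above the median of 2.97 for other chromosome 2 genes of 20 kb or more.

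CDH1 and CDH3, the gene of P-cadherin in mammals, lie next to each other on chromosome 11, with a gap of 601 bp between CDH3 (18511388 to 18517067) and CDH1 (18517669 to 18526385, 8.717 kb). CDH1 had H3K27me3 and no H3K4me3 at its ends. A single H3K27me3 peak (18517145 to 18518589, 1445 bp) of fold 5.40 and −log10 q 25.1 lay over the gap and the low end of CDH1 and counted for both genes. It began 78 bp beyond the high end of CDH3 and covered none of that gene. It was not among the strongest of its list, with 7769 of 22875 H3K27me3 peaks higher in fold. The same end carried EZH2 at a fold of 3.46, JARID2 at 7.39 and AEBP2 at 2.44. SUZ12 was found at the other end of CDH1, at folds of 2.59 and 1.68, in peaks that also lie within 1 kb of an end of TMCO7. The body held an EZH2 peak of fold 2.45 and SUZ12 peaks of 3.02 and 2.32.

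CDH3 had H3K4me3 at the end away from CDH1. That peak had a fold of 25.6 and was 2475 bp wide, and it also lay within 1 kb of an end of the neighbouring gene URAH. The H3K4me3 and H3K27me3 peaks of CDH3 were 3951 bp apart, so its 2 marks were adjacent rather than overlapping. An H3K4me3 peak of fold 7.02 lay 1069 bp beyond the high end of CDH1, just outside the window. With windows of 2.5 kb CDH1 therefore counted as having both marks. The SUZ12 peaks between that end and this H3K4me3 peak also lie within 1 kb of an end of TMCO7. Whether the H3K4me3 peak belongs to CDH1 or to TMCO7 was not tested. The other close H3K4me3 peak, 4476 bp from the low end, was that of CDH3.

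**Figure D3:**
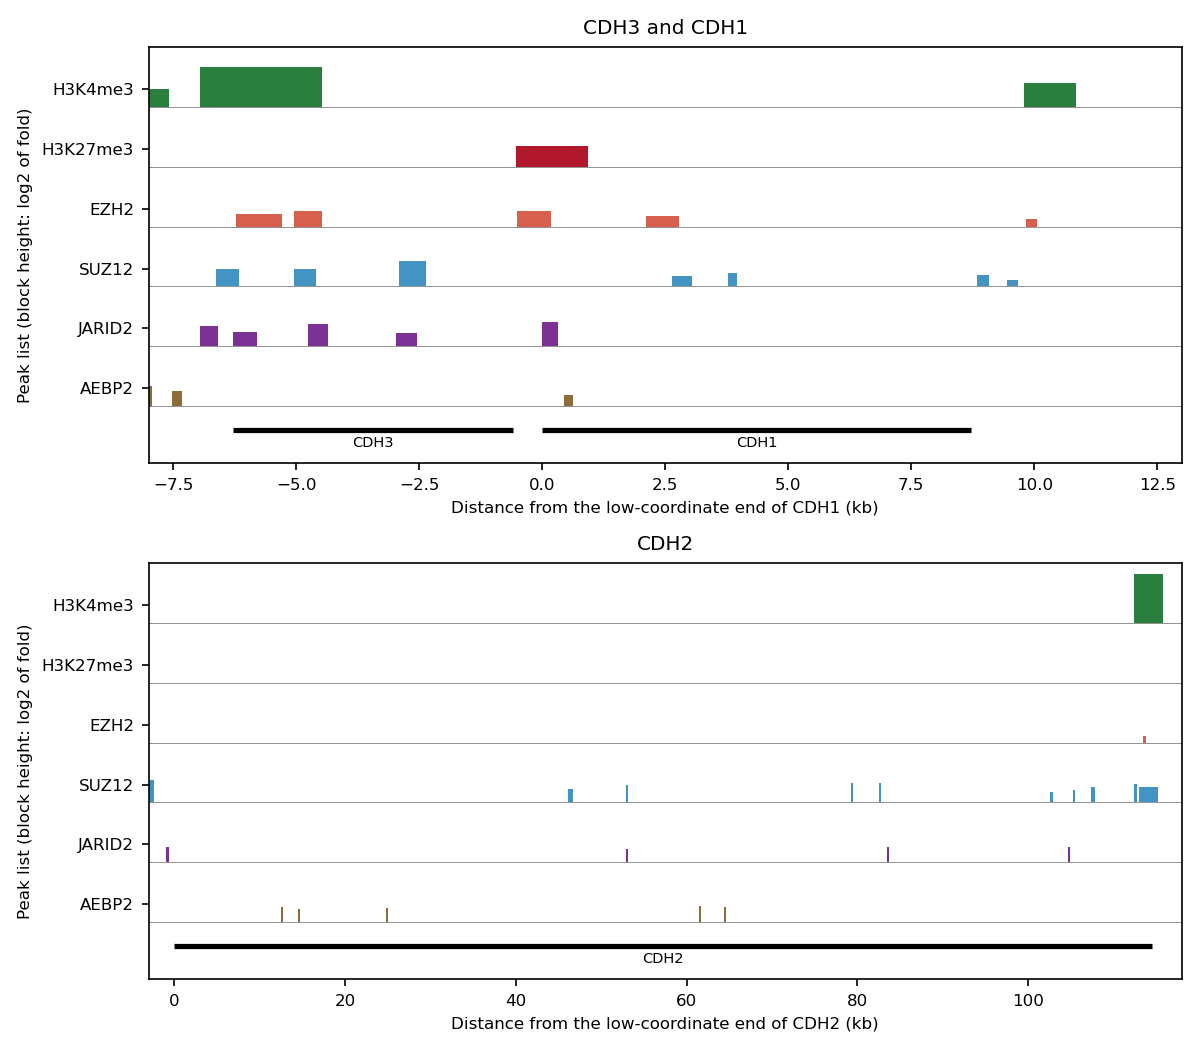
Peaks of the 6 lists around CDH3 and CDH1 (top) and CDH2 (bottom), as blocks placed by distance in kb from the low-coordinate end of CDH1 or CDH2, with block height proportional to the log2 of the fold. CDH2 shows 1 tall H3K4me3 block (fold 52.3) at its high end and an empty H3K27me3 row, and CDH1 shows its H3K27me3 block (fold 5.40) at the low end.

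The other type I cadherins carried strong Polycomb signal. CDH15, the cadherin of muscle (M-cadherin), had the highest H3K27me3 fold of the set, 64.1, in a peak of 11191 bp that covered the whole 4.743 kb gene. That peak also touched ends of ACSF3 and SLC22A31, so it is a domain over several genes rather than a signal of CDH15 alone. EZH2 reached 43.5 at the same gene, also the highest of the set. CDH4, which encodes R-cadherin of retina and brain, had H3K27me3 at 35.3, EZH2 at 37.7, JARID2 at 11.5 and AEBP2 at 10.5, all at the low end. The EZH2 and AEBP2 values were each the second highest of the set, and that of JARID2 was the highest. H3K4me3 at this end reached only 2.65, in 2 narrow peaks of 381 and 434 bp that both lay inside the H3K27me3 peak of 4204 bp.

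Type II cadherins with H3K27me3 were CDH22 (fold 35.7), CDH20 (18.8), CDH7 (16.9), CDH8 (7.95), CDH12 (6.0) and CDH18 (5.76). CDH7 and CDH20 are best known from the nervous system and neural crest. CDH22 had the mark at both ends (35.7 and 21.6) and in 7 body peaks, which together with the end peaks covered 21.8% of the gene. EZH2 accompanied the mark at 5 of these 6 genes and was not found at the ends of CDH8. SUZ12 was found at the ends of 1 of the 12 type II genes, CDH8, against 64.5% of all genes. AEBP2 was found at 10 of the 12, against 37.1% of all genes. That background was not matched for length. Over all genes the AEBP2 share rose from 30.8% under 20 kb to 65.9% at 200 kb or more, and the type II genes had a median of 110 kb.

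CDH5, CDH6, CDH9, CDH10, CDH11 and CDH19 had neither histone mark at an end. CDH5, the cadherin of endothelial cells (VE-cadherin), was close to the window for the Polycomb mark: an H3K27me3 peak of fold 11.6 lay 1282 bp from its low end. CDH6 and CDH11 carried the mark inside the gene. In CDH6 an H3K27me3 peak of fold 21.6 and 3483 bp held 2 H3K4me3 peaks, of folds 4.86 and 3.93, and lay 9.03 kb inside the high end. In CDH11 an H3K27me3 peak of fold 12.6 and 4281 bp lay 76.4 kb inside the high end, with no H3K4me3. These 2 genes were therefore unmarked at the table's gene ends but not in the gene. CDH9, CDH10 and CDH19 had no peak of either histone mark at the ends or in the body.

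Among the other cadherins CDH23, a component of the tip links of hair cells, had the second highest H3K27me3 fold of the set, 45.7. That peak lay at its low end and also within 1 kb of an end of SLC29A3. CDH23 carried 8 further H3K27me3 peaks in the body, and EZH2 at the low end reached 17.6. CDH13, the GPI-anchored T-cadherin, had a weak H3K27me3 peak of fold 2.65 (−log10 q 2.13). CDH17, the cadherin of liver and intestine, had neither mark, with SUZ12 at 3.59 and JARID2 at 4.86.

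The delta-2 protocadherins PCDH8, PCDH10, PCDH17, PCDH18 and PCDH19 had H3K27me3 folds of 14.9, 27, 17.2, 4.77 and 24.9, and EZH2 folds of 11.5, 22.6, 8.59, 3.49 and 7.56. PCDH10 had the highest SUZ12 fold of the set, 13.1. Both SUZ12 end peaks of PCDH10 also lay within 1 kb of an end of a gene without a symbol. PCDH19 followed at 7.29. H3K27me3 lay at both ends of PCDH8 and PCDH19. PCDH8 had the second highest JARID2 fold of the set, 8.49. Every delta-2 gene thus carried both the Polycomb mark and its enzyme.

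The delta-1 protocadherins differed. PCDH7 had H3K4me3 at 7.13 and no H3K27me3 at the ends or in the body, with SUZ12 at 6.91 and JARID2 at 5.89 at the same end and no EZH2 there. PCDH11X had a weak H3K4me3 peak, of fold 1.77, at its high end, where EZH2 reached 1.72, and 1 H3K27me3 peak of fold 2.45 in its body. PCDH1 had H3K4me3 at 25.1 and H3K27me3 at 12.7 at its low end, in peaks that overlapped by 3103 bp, the whole H3K4me3 peak and the longest overlap among the genes with both marks. PCDH9 had neither mark at an end, with EZH2 at 4.64 and SUZ12 at 2.16 there.

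Of the other protocadherins PCDH20 had peaks of all 6 lists at its low end, with H3K27me3 at 15.5, EZH2 at 28.6, H3K4me3 at 4.44 and the highest AEBP2 fold of the set, 18.0. The H3K4me3 peak of 337 bp lay wholly inside the H3K27me3 peak. PCDH12, known from vascular endothelium, had H3K27me3 at 2.66. PCDH15, another tip-link gene and at 990.968 kb the longest of the set, had neither mark at an end but 7 H3K27me3 peaks in its body, the strongest of fold 23.3.

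The clustered protocadherins lie on chromosome 13. The table holds 9 alpha genes between positions 957284 and 1091571 (134.288 kb), 1 beta gene, PCDHB3, and 3 gamma genes between 1470342 and 1518616 (48.275 kb). PCDHA1 and PCDHA2 have identical coordinates, and PCDHA3 and PCDHA6 share their low end. The alpha genes end close together and otherwise differ in the low end. Peaks near a low end therefore separate all of them but these pairs. H3K27me3 peaks covered 24.8% of the alpha cluster, in 24 peaks with folds up to 39.6, and 24.6% of the gamma cluster, in 7 peaks with folds up to 24.6. PCDHB3 had no peak of any list at its ends or in its body.

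H3K27me3 was concentrated towards the low-coordinate part of both clusters. In the alpha cluster, peaks were counted by their summit in 2 stretches. The stretch of 60.881 kb from 1 kb before the lowest gene coordinate to 1 kb before PCDHAC1 held 19 H3K27me3 and 13 EZH2 peaks and no H3K4me3 or SUZ12 peak. A further H3K27me3 peak of fold 29.9 reached the low end of PCDHA1 and PCDHA2 from outside, with its summit before this stretch. The following 74.407 kb held 4 H3K27me3, 4 EZH2, 3 SUZ12 and 1 H3K4me3 peak. That single H3K4me3 peak, of fold 17.4, lay at the low end of PCDHAC1, 1 of the 2 C-type genes, where H3K27me3 reached 15.0, and the overlap was its whole 1237 bp. PCDHAC2, the other C-type gene of this cluster, had H3K27me3 at 9.58 and EZH2 at 18.2 and no H3K4me3. At the low ends of the 7 other alpha genes H3K27me3 folds were 11.9 to 39.2. The 39.2, at PCDHA7, was that of a peak of 7554 bp with its summit before the gene. That summit lay 38.7 kb from the lowest gene coordinate of the cluster, and PCDHA7 begins at 45.9 kb. PCDHA1 and PCDHA2 count the same low-end peaks there, as do PCDHA3 and PCDHA6.

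The gamma cluster was split more sharply. The 16.39 kb up to 1 kb before PCDHGC3 held all 7 H3K27me3 peaks of the cluster and no H3K4me3 peak, and the following 32.885 kb held 3 H3K4me3 peaks and no H3K27me3 summit. PCDHGA2 had H3K27me3 alone (10.7), PCDHGC3 had H3K4me3 at 4.11 and H3K27me3 at 9.39 with an overlap of 163 bp, and PCDHGC5 had H3K4me3 alone (2.52). All H3K4me3 peaks of both clusters thus lay at or beyond the first C-type gene. EZH2 did not follow this split: 4 EZH2 peaks lay in the first gamma stretch and 9 in the second, with 8 SUZ12 and 8 JARID2 peaks also in the second.

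**Figure D4:**
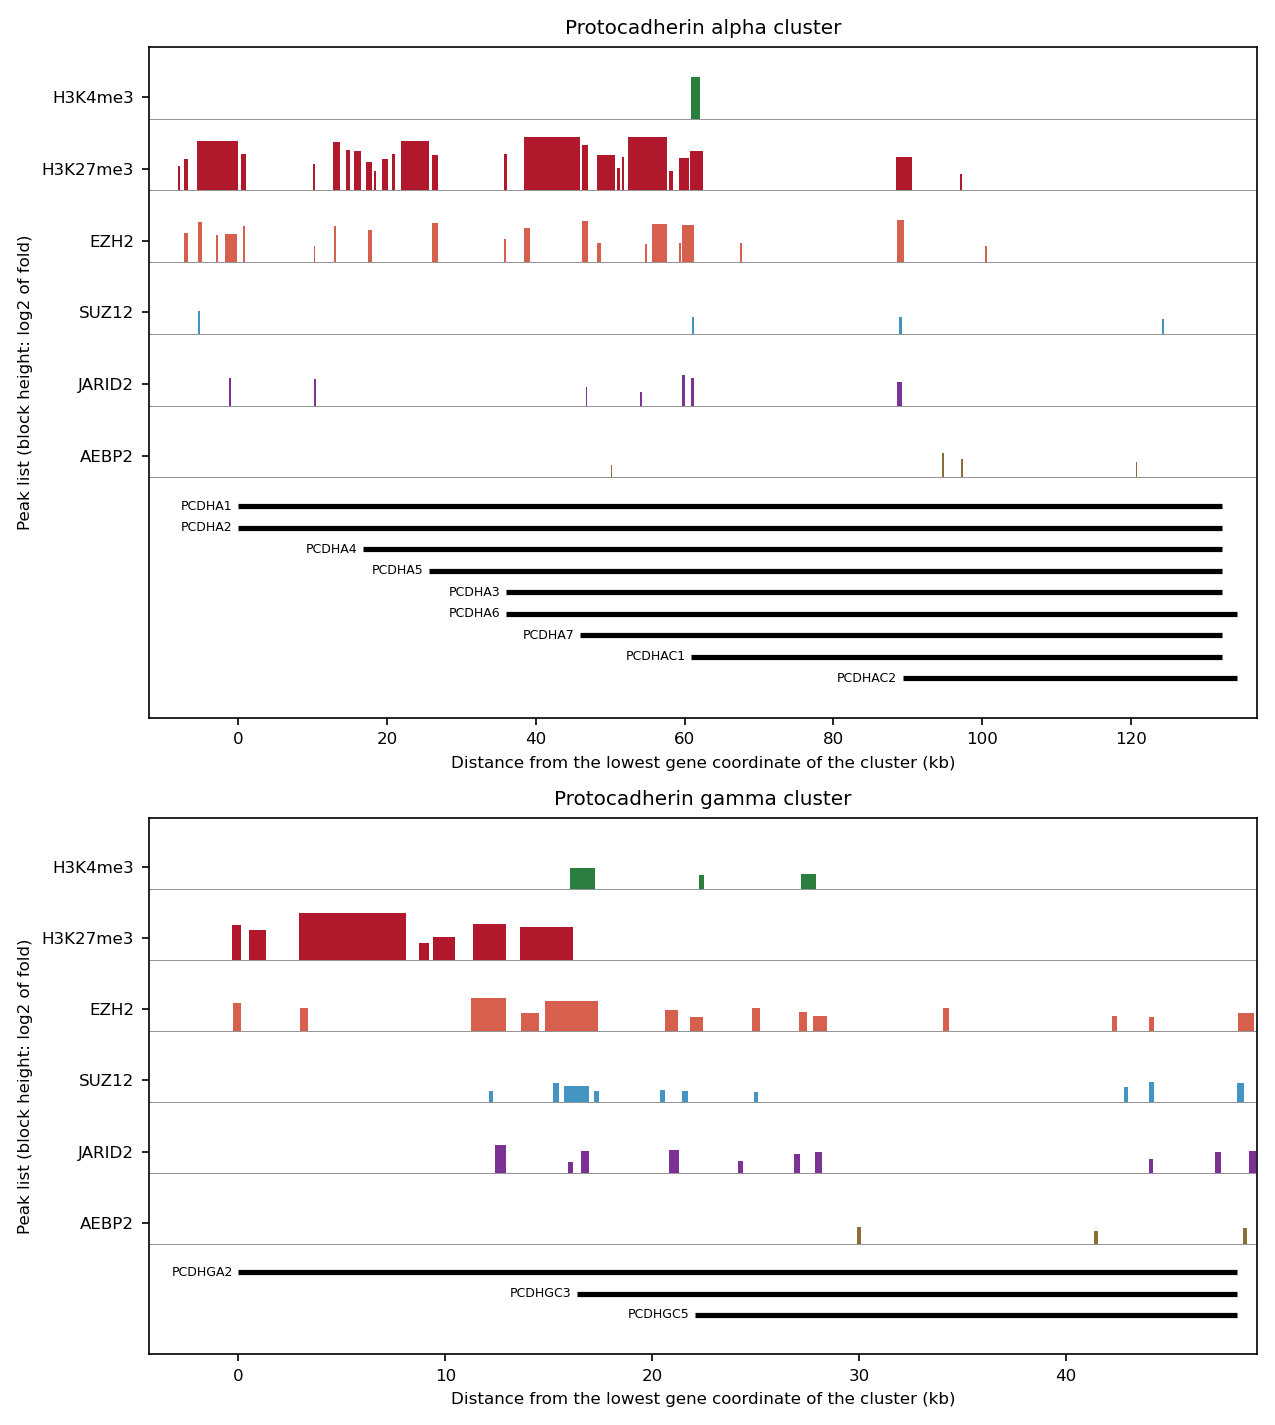
Peaks of the 6 lists along the protocadherin alpha (top) and gamma (bottom) clusters of chromosome 13, by distance in kb from the lowest gene coordinate of each cluster, with block height proportional to the log2 of the fold and genes as black lines. H3K27me3 blocks crowd the left part of each cluster, and the H3K4me3 blocks start at PCDHAC1 (fold 17.4) and PCDHGC3 (fold 4.11).

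The H3K27me3 folds at the ends had a median of 14.9 over the 31 genes with a peak, against 12.5 over all 4637 genes with one. For EZH2 the medians were 7.26 and 4.03, and 24 of 34 genes lay above the median of all genes. H3K4me3 was weaker than usual where it was found, with a median of 5.79 against 13.7 over all genes with a peak, and CDH2, CDH3, PCDH1 and PCDHAC1 lay above that median. SUZ12 was also weaker (3.61 against 4.27), and JARID2 (5.72 against 4.62) and AEBP2 (3.82 against 3.37) were slightly higher. H3K4me3 lay at 1 end only at each of its 10 genes. H3K27me3 lay at 1 end at 27 genes and at both at CDH15, CDH22, PCDH8 and PCDH19.

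Peaks of all 4 PRC2 subunits were found at the ends of 9 genes (20.0%), against 15.2% of all genes, and none at 1 gene, PCDHB3 (2.22%, against 18.6% of all genes). Those with all 4 were CDH1, CDH4, CDH23, PCDH10, PCDH19, PCDH20, PCDHGA2, PCDHGC3 and PCDHGC5. The gamma genes PCDHGA2, PCDHGC3 and PCDHGC5 owed their AEBP2 call to a single peak of fold 2.90 at their common high end. They are thus not separate cases. Among the 25 genes with H3K27me3 alone, EZH2 lay at 22 (88.0%, against 78.5% of all genes in that state) and SUZ12 at 9 (36.0%, against 54.7%). Among the 10 genes with neither mark, AEBP2 lay at 8 (80.0%), against 23.8% of all genes in that state, which were not matched for length. Of 125 EZH2 peaks at the ends or in the bodies of the set, 63 overlapped an H3K27me3 peak (50.4%), against 35.0% of EZH2 peaks at all genes. The 95% Clopper-Pearson interval, 41.3 to 59.5, covers counting error only. It treats the peaks as independent, although 16 lie in the alpha and 13 in the gamma cluster, so it is no test against the 35.0%. Overlap of EZH2 with H3K4me3 was 11.2%, against 42.9%, and with SUZ12 27.2%, against 51.6%. Overlap was rare for AEBP2, of whose 1775 peaks 2.93% met H3K27me3, against 5.71% at all genes.

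Gene bodies were compared with length in view, since these genes are long. Their median length was 96.3 kb, against 12.1 kb over all genes, and 46.7% of them, against 7.74% of all genes, spanned 100 kb or more. H3K4me3 was found in the body of 12 genes (26.7%, against 11.1% of all genes), of which 10 belong to the alpha and gamma clusters and 2 are CDH6 and PCDH7. The 7 alpha genes among them count the same peak, that of PCDHAC1, and the 3 gamma genes share 3 peaks. Without the clustered protocadherins it was 2 of 32 genes (6.25%), below the share of all genes. H3K27me3 was found in 21 bodies (46.7%, against 13.7%) and EZH2 in 32 (71.1%, against 25.5%). SUZ12 was found in 37 (82.2%, against 45.9%), JARID2 in 36 (80.0%, against 42.5%) and AEBP2 in 41 (91.1%, against 42.6%). For every list the excess over all genes of that length was larger from 20 to 100 kb than in either longer class. Under 20 kb AEBP2 lay in 4 of 8 bodies, against 19.5% of all genes of that length. There EZH2, SUZ12 and JARID2 lay in 3 of 8 each, against 10.9%, 25.8% and 23.7%. H3K4me3 and H3K27me3 lay in 0 of 8 there, against 5.43% and 6.34%. H3K4me3 lay in 6 of 16 bodies from 20 to 100 kb, against 18.4%. It lay in 5 of 12 from 100 to 200 kb, against 29.6%, and in 1 of 9 at 200 kb or more, against 32.3%. From 20 to 100 kb, H3K27me3 lay in 8 of 16 bodies, against 20.9% of all genes of that length. From 100 to 200 kb, H3K27me3 lay in 7 of 12 bodies, against 39.0% of all genes of that length, and at 200 kb or more in 6 of 9, against 62.0%. AEBP2 lay in all 21 bodies of 100 kb or more, as it did in 97.9% and 98.9% of all genes of the 2 classes. From 100 to 200 kb the bodies showed no excess of EZH2 (8 of 12, against 72.2% of all genes of that length). The same held there for SUZ12 (11 of 12, against 94.5%) and JARID2 (11 of 12, against 93.8%). At 200 kb or more each of these lay in 9 of 9 bodies, against 90.2%, 98.5% and 98.5%.

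At the ends the contrast in H3K27me3 was larger in the shorter genes. H3K27me3 lay at 7 of 8 genes under 20 kb, against 23.2% of all genes of that length, and at 12 of 16 from 20 to 100 kb, against 27.1%. It lay at 8 of 12 from 100 to 200 kb, against 40.4%, and at 4 of 9 above that, against 53.1%. H3K4me3 at the ends was below the share of all genes in each class, with 2 of 8 against 53.1%, 4 of 16 against 66.0%, 1 of 12 against 61.5% and 3 of 9 against 51.8% in order of length. For AEBP2 the order was mixed: 5 of 8 against 30.8%, 6 of 16 against 45.3%, 7 of 12 against 53.2% and 9 of 9 against 65.9%. EZH2 lay at 6 of 8 against 53.0%, 14 of 16 against 69.0%, 9 of 12 against 73.9% and 5 of 9 against 75.3%. Its excess at the ends was thus seen in the genes under 100 kb and not clearly in the longer ones.

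AEBP2 peaks were many in the bodies of the unclustered genes. PCDH15 held 430, PCDH11X 165 and CDH12 163. Per 100 kb of body, the 37 genes of 20 kb or more had a median of 18.9 AEBP2 peaks, against 6.33 over 6526 other genes of that length, and 23 of the 37 lay above the median of the other genes of their own chromosome. Without the clustered protocadherins it was 22 of 25. The densest were CDH5 (47.5, against 8.61 for chromosome 11), PCDH15 (43.5, against 8.40 for chromosome 6) and CDH19 (40.9, against 9.70 for chromosome 2). CDH2 stood apart from the other chromosome 2 cadherins, with 4.45 AEBP2 peaks per 100 kb. The other 9 had 17.1 to 40.9. The alpha cluster genes, at 3.07 to 6.98, also lay below their chromosome's median of 7.09.

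**Figure D5:**
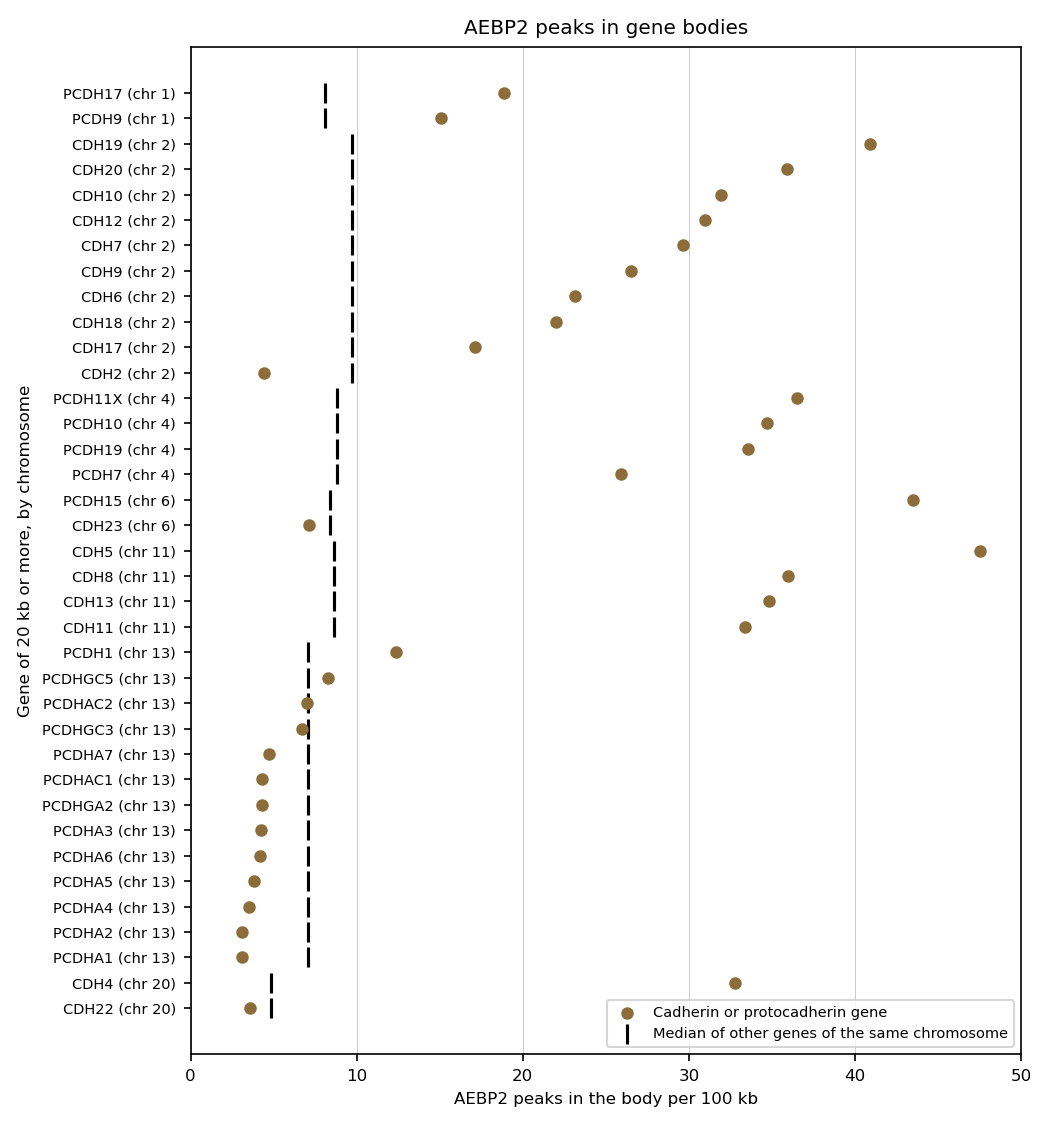
AEBP2 peaks per 100 kb of gene body for the 37 cadherin and protocadherin genes of 20 kb or more (points), grouped by chromosome, with the median of the other genes of the same chromosome and length limit (black ticks). CDH2 (4.45) lies left of its tick and the other chromosome 2 cadherins right of it, and the alpha genes (3.07 to 6.98) lie left of theirs.

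EZH2 body density was also above that of other genes, and SUZ12 and JARID2 densities were not. SUZ12 had a median of 2.64 peaks per 100 kb, against 4.27 over the other genes, and 11 of 37 genes lay above their chromosome's median. For JARID2 the medians were 3.24 and 3.33, with 9 of 37 genes above. EZH2 had a median of 1.78, against 0.331, with 28 of 37 above, 12 of them clustered protocadherins that overlap each other (on some chromosomes that median was 0). PCDH15 also held the most SUZ12 (29) and JARID2 (32) peaks, and PCDHA1 and PCDHA2, with the same interval, the most H3K27me3 (22) and EZH2 (15) body peaks.

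The genes on which cadherins depend were examined at their ends in the same way. Over all 59 matched genes of the partner lists, H3K4me3 lay at 45 (76.3%, against 57.2% of all genes) and H3K27me3 at 17 (28.8%, near the 26.0% of all genes). These genes all have a symbol, and H3K4me3 lay at 66.4% of all genes with one, so its excess was smaller on that background. H3K4me3 alone was found at 32 (54.2%, against 45.3%) and H3K27me3 alone at 4 (6.78%, against 14.0%). Of 14 catenins and partners 7 had H3K4me3 alone, near the share of all genes, 4 both marks, 3 neither and none H3K27me3 alone. CTNND1 (p120 catenin) had H3K4me3 at 78.8, CTNNB1 (beta-catenin) at 41.8, JUP (plakoglobin) at 31.4 and ARVCF at 26.5. H3K27me3 was found at the catenin genes CTNNA2 (11.1) and CTNND2 (9.18), both best known from neurons, and at PKP2 (3.58) and JUP (2.83). Both nectin genes in the table, NECTIN3 (97.0) and NECTIN1 (53.4), had H3K4me3 alone. All 10 matched genes of cadherin processing and trafficking had H3K4me3, against 57.2% of all genes. Of these, 2 had H3K27me3 as well, against 12.0% of all genes with both marks. The highest folds were those of ADAM10 (31.0), the sheddase of classical cadherins, and CBLL1 (24.4).

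Of 12 matched repressors and inducers known to act on cadherin genes, 7 had H3K4me3 alone, 3 both marks, 1 H3K27me3 alone and 1 neither. The shares of all genes in these states, for this and the following lists, were 45.3%, 12.0%, 14.0% and 28.7%. ZEB2 (107) and ZEB1 (25.5), repressors of CDH1 in mammals, had H3K4me3 alone, as did TCF3 (55.9) and GRHL3 (30.6). FOXC2 (64.4) and TWIST1 (51.9) had strong H3K27me3 with weak H3K4me3. Of 17 large and atypical cadherins 8 had H3K4me3 alone and 5 neither, both near the shares of all genes, 1 had H3K27me3 alone and 3 both. Highest in fold were CDHR2 (44.1), FAT1 (24.8), CLSTN1 (24.3) and DCHS1 (21.0) for H3K4me3 and FAT2 (20.6) and FAT3 (10.4) for H3K27me3. Of the 4 desmosomal genes in the table, DSC1 (14.9) and DSG2 (7.65) had H3K27me3 alone, DSP both marks (H3K4me3 5.12, H3K27me3 12.4) and DSG4 neither.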

How the data were processed

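CUT&RUN libraries of embryonic day 4.5 chicken lens were used as the 6 deposited narrowPeak lists. The submitters' processing notes name the read trimmer Trim Galore (0.6.4), the aligner Bowtie2 (2.4.1), the peak caller MACS2 (2.2.7.1) and build GRCg7b. The sources used here do not give the role of IgG in peak calling, nor how the 3 libraries of an antibody became 1 list. In each deposited list the fold is a ratio over background, and significance is a −log10 q-value of at least 1.30. The deposited score and the summit offset were used only as peak attributes, the score in no result. Folds were compared only within a list, as the authors' own values.

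Genes came from the RefSeq GRCg7b table, which has no strand, so starts could not be separated from 3′ ends. No sequence was used. Overlaps were computed with Python 3.11.15, numpy 2.4.6 and pandas 2.3.3, and tested on simulated peaks, all of which were recovered. The genes, classes, partner lists and markers were chosen with earlier results of these data known. Named genes are CDH1 and CDH2, up to 8 genes per state by fold, the 3 highest folds at an end and the 3 most body peaks per antibody, and up to 4 partner genes per list and mark. Other genes are named to complete a class, and were chosen after their values were seen. Alternatives covered window width, q-value, list length, overlap, region and background. With 1 list per antibody no test between samples was possible, and none was run.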

Additional observations from a re-analysis of the deposited data

How the results depend on the processing

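Counts at gene ends and in bodies were repeated with windows of 500 bp and 2.5 kb, peaks of −log10 q of at least 5, the 11079 strongest peaks of each list, an overlap of 0.5 of the peak or window, whole genes in place of ends, and backgrounds of genes with a symbol or of the same length range. Of 92 such values, 79 stayed within 1.5 times the reported count (or within the counting interval or the same state) and 13 did not. Of 66 shares set against all genes, 4 changed sides: AEBP2 at equal list length, SUZ12 with whole genes, and both marks with 2.5 kb windows and with an overlap of 0.5. With 2.5 kb windows CDH1 had 2 histone marks at its ends in place of H3K27me3 alone. This came from the H3K4me3 peak beyond its high end, which was not assigned to CDH1 or TMCO7. AEBP2 at the ends fell to 16 genes (35.6%, against 24.0% of all genes) at the stricter q-value. At equal list length AEBP2 was at the ends of 4 genes (8.89%, against 9.24% of all genes) and SUZ12 of 8 (17.8%, against 41.7%), and body peaks were found in 18 genes for EZH2 (against 11.1% of all genes), 12 for SUZ12 (14.7%) and 18 for AEBP2 (9.8%); these lists hold fewer peaks by construction. With whole genes in place of ends, H3K4me3 lay at 19 genes (42.2%, against 61.6% of all genes), SUZ12 at 39 (86.7%, against 76.6%), JARID2 at 41 (91.1%, against 63.5%), AEBP2 at 42 (93.3%, against 57.8%) and both marks at 16 (35.6%, against 16.4%). The share of EZH2 peaks in H3K27me3 was 62.2% at the stricter q-value in both lists, against 50.4% as reported.

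Leaving out the clustered protocadherins, and repeating the AEBP2 body density at the stricter q-value (23 of 37 genes above their chromosome's median) and at equal list length (17 of 37), were chosen after seeing the data. Of these 17 values 1 moved: without the clusters, H3K4me3 lay in 2 bodies of 32, below the share of all genes. For the AEBP2 density all chromosome medians were 0 at equal list length, as was that of chromosome 20 at the stricter q-value. Any body peak there counted as above the median, so the 17 of 37 is no measure of density. No paired analysis was possible because each antibody has 1 list with no values per library, and leaving out a replicate was impossible for the same reason. Counting only transcription starts, and counting E-box and CpG letters in promoters, were not run, because neither strand nor sequence was used here. Depth is unknown, so a missing peak is a peak not called at this depth, not a missing mark.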
